A study of Mus musculus with 15 samples.

Results

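The mitochondrial ribosomal protein genes of the mouse were taken as all genes in the deposited count table whose symbol is Mrpl or Mrps followed by digits alone. This rule found 74 of 24421 genes, 48 named for the large subunit (Mrpl) and 26 for the small subunit (Mrps). The rule used names only and no measured value. Every one of the 74 was counted in every library, the lowest count being 73, and all 74 passed the filter on low counts.

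Mitochondria carry their own ribosome, the mitoribosome, which translates the few mRNAs of the mitochondrial genome into core subunits of the respiratory chain and the ATP synthase. Its ribosomal RNAs come from the mitochondrial genome, but all of its proteins are encoded in the nucleus, made in the cytosol and imported. Many are relatives of bacterial ribosomal proteins, and the rest are found only in mitochondria. Proximal tubule cells of the kidney are rich in mitochondria, which power the uptake of filtered solutes.

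The study measured RNA in primary cells from the kidneys of C57BL/6 mice, labelled as proximal tubule cells and passaged once in culture before sequencing. Mice were wild type (WT, Diet1 +/+) or carried a homozygous loss of Diet1 (KO, Diet1 -/-), a gene known for a role in bile acid balance. In all there were 15 libraries, 4 in each of the groups female KO, female WT and male WT, and 3 in the male KO group. No age is given, and no treatment is named. Each group came from 1 pool of cells of 3 to 4 mice that was divided into technical replicates, so p-values measure only the spread between such replicates, and a difference between genotypes or sexes cannot be told apart from a difference between pools.

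Libraries held 17648416 to 30896637 counts, which limits counting error but not differences between pools. Of 18 proximal tubule markers, 13 passed the filter, among them Lrp2 and Ggt1. Among the defining solute carriers, Slc34a1 had 4 counts and Slc22a6 and Slc22a8 had 1 count each over all libraries. Markers of other cells were present. Library sums were 1849 to 3912 CPM for 10 fibroblast markers and 2728 to 4083 CPM for 7 smooth muscle and pericyte markers. For the 18 proximal tubule markers they were 471 to 585 CPM. Sums over different genes do not give shares of cells. The summed level of 10 endothelial markers was 49.8 to 56.5 CPM in male KO against 110 to 124 CPM in male WT, and 47.5 to 63.9 CPM in female KO against 42.4 to 50.6 CPM in female WT. CPM are counts per 1000000 counts of a library, scaled for library composition by the TMM method.

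The promoters of 4 members named in the results are shown first, as the 250 bases before the RefSeq start on build GRCm38.p6. RefSeq held 71 promoters for 65 of the 74 members. Motifs were searched on both strands in the 250 bases before and 50 bases after each start. They were CCGGAAG, read by ETS factors such as GABP, the NRF1 letters (GCGC, any 2 bases, GCGC), AAGATGGCG, read by YY1, and the TATA box TATAAA. None of these letter strings lies within another. Capitals below mark a match on either strand, and the labels name only matches within the printed bases. In the 50 bases after the start, Mrps27 also held a YY1 match, and Mrpl52 and Mrps21 each an ETS match.
Mrps27 (chr13:99344536-99344785, plus strand, an ETS match): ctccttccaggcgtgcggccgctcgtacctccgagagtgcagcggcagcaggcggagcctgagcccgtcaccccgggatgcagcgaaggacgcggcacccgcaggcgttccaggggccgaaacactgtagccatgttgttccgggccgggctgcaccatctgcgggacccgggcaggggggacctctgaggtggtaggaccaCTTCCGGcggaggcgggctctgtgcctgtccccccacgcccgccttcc
Mrpl36 (chr13:73330759-73331008, plus strand, a YY1 match): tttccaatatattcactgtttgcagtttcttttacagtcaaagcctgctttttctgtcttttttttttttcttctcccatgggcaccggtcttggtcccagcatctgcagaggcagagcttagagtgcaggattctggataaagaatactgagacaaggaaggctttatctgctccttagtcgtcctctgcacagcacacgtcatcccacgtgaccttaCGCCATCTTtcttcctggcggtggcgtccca
Mrpl52 (chr14:54426659-54426908, plus strand, an ETS match): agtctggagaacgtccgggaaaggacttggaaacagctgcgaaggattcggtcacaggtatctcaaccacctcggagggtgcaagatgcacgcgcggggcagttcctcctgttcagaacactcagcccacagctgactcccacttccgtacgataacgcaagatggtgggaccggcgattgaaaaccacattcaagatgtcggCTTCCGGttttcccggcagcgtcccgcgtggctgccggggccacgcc
Mrps21 (chr3:95871515-95871764, minus strand, an NRF1 match): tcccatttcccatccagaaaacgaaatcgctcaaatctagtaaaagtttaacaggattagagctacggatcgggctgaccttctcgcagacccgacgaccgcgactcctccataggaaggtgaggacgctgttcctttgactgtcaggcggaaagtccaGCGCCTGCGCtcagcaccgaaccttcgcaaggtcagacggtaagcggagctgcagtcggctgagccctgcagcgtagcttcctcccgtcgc
Mrps27 and Mrpl36 are shown because they were called in opposite directions in female KO cells, and Mrpl52 and Mrps21 because they stood among the 5 highest levels per length. The stretch printed for Mrpl36 lies before a RefSeq start inside the gene as GENCODE M21 draws it, which begins further upstream, at 73328513.

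The ETS letters were found in 31.0% of the 71 member promoters, against 11.6% of 21263 promoters of protein-coding genes of the same length. The NRF1 letters were in 19.7% against 8.57%, and the YY1 letters in 9.86% against 1.83%. At least 1 of these 3 motifs was in 53.5% of the member promoters and in 19.7% of coding promoters. TATAAA was in 7.04% against 12.6%. The median GC content was close, at 58.3% for members and 56.3% for coding promoters. Large and small subunit promoters held the ETS letters at 29.8% and 33.3%, and the promoters of cytosolic ribosomal protein genes at 35.5%. These shares are a description of letters and were not tested.

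On the genome (GENCODE M21, build GRCm38) the members lay on 17 chromosomes. A head-to-head neighbour, meaning a protein-coding gene on the other strand whose start lay within 1000 bases, was found for 24 members (32.4%), against 9.53% of 21951 protein-coding genes. Mrps11 and Mrpl46 formed such a pair with each other. Mrps12 stood head to head with Sars2, the mitochondrial seryl-tRNA synthetase gene, Mrpl36, by its GENCODE start and not the one printed above, with Ndufs6, a complex I subunit gene, and Mrps27 with Ptcd2, which codes for a mitochondrial RNA-binding protein. Exon bases were shared with a gene on the opposite strand by 24 members and with one on the same strand by 4. The libraries were strand-specific, but the strand setting of the counting is not given in the sources used here, so values of these members are less certain. A further source of uncertainty is that 17 members had a pseudogene copy of at least 95% identity over at least 250 bases, with which reads can be shared.

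Members were expressed at moderate levels. Together they took 0.216% to 0.239% of the counts of a library. Mean levels over the 4 groups ran from 4.65 to 74.8 CPM per gene. To compare genes, levels were divided by exon length, which gave a median of 18.6 CPM per kilobase (kb) and a 34.3-fold range. The median per-length level was 19.0 CPM per kb for large subunit members and 16.7 CPM per kb for small subunit members.

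The highest level per length was that of Mrpl52 at 90.8 CPM per kb (chr14:54426909-54429756), a mitochondria-specific large subunit protein. It was followed by Mrpl33 at 75.3, Mrps21 at 66.5, Mrpl34 at 57.5 and Mrpl42 at 55.4 CPM per kb. Mrpl33 shares 177 exon bases with another gene on its own strand, and Mrps21 and Mrpl42 have near-identical pseudogene copies. The lowest levels were those of Mrpl48 at 2.64 CPM per kb, Mrpl47 at 3.55, Mrps35 at 4.16, Mrps33 at 4.54 and Mrpl1 at 4.79 CPM per kb, of which Mrpl48 and Mrps33 have such copies. The order depended on the length used. By the median length of coding transcripts Mrpl52 was still highest, at 101 CPM per kb. Mrpl20 at 84.1 and Mrpl30 at 58.4 CPM per kb then stood above Mrpl34 and Mrpl42. Mrpl47 became the lowest at 3.55 CPM per kb, while Mrpl48 rose to 6.66 and Mrps33 to 9.75 CPM per kb.

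**Figure D1:**
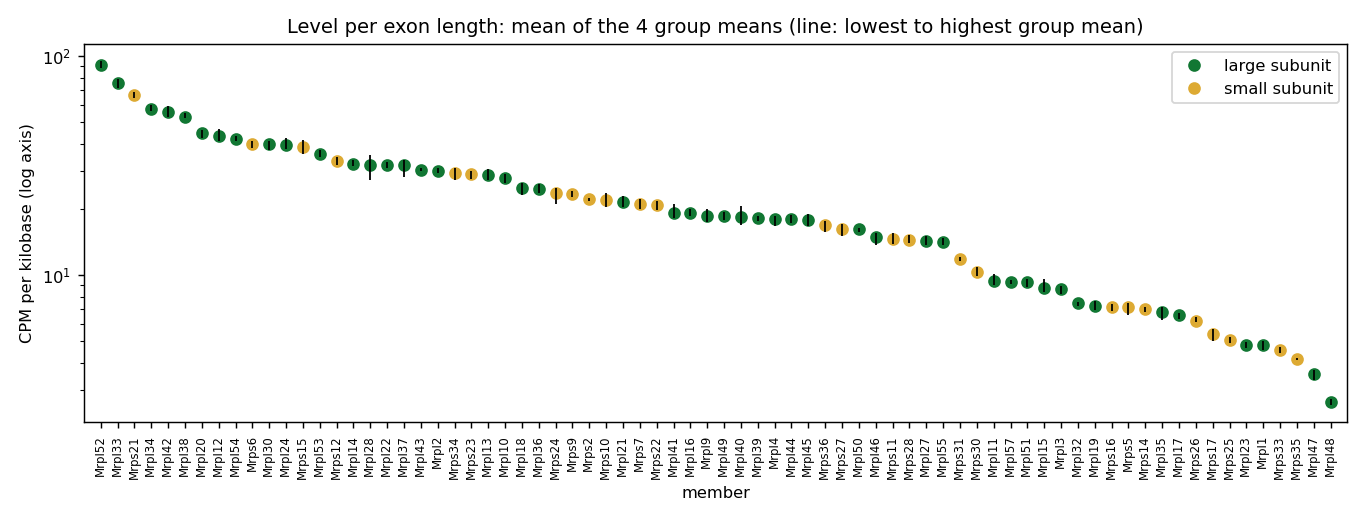
Level of each of the 74 members per exon length, in CPM per kilobase on a log axis, as the mean of the 4 group means (points) with the lowest and highest group mean (lines). Members ran from 90.8 (Mrpl52) to 2.64 CPM per kilobase (Mrpl48), and the spread between groups was small beside the spread between genes.

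The order of the genes was much wider than the differences between groups. The highest group mean of a member was a median of 1.09 times its lowest, and 1.305 times at most. Only 2 of 74 members exceeded 1.2 times, and 34 exceeded 1.1 times. Within a group, the coefficient of variation of a member had a median of 4.81%, from 2.26% to 13.3%.

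Summed over the large subunit members, the level in males was 1620 ± 29.7 CPM in KO (SD, n = 3) against 1539 ± 58.5 CPM in WT (n = 4), and in females 1570 ± 51.1 CPM in KO (n = 4) against 1531 ± 22.8 CPM in WT (n = 4). For the small subunit members the sums in the same order were 726 ± 13.0, 699 ± 30.1, 707 ± 22.3 and 693 ± 5.0 CPM. Both sums were thus slightly higher in KO than in WT, by 5.25% (large) and 3.88% (small) in males and by 2.55% and 2.06% in females, where the log2 difference without composition scaling was -0.0020 (large) and -0.0090 (small). KO and WT libraries overlapped in all 4 of these comparisons. In males the overlap came from male WT 1, whose large subunit sum was 1622 CPM against 1492 to 1536 CPM in the other male WT libraries.

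The balance between the subunits was nearly constant. Large over small subunit sums gave a ratio of 2.23 ± 0.0367 in male KO (n = 3) against 2.20 ± 0.0192 in male WT (n = 4), and of 2.22 ± 0.0300 in female KO (n = 4) against 2.21 ± 0.0322 in female WT (n = 4). Libraries of all groups lay between 2.18 and 2.25. KO differed from WT by 1.31% in males and 0.483% in females, with overlapping libraries in both. Part of the ratio is set by gene number, since 48 genes were summed against 26. The symbol is also an imperfect guide to the subunit: the protein of Mrps30 sits in the large subunit, and that of Mrps36 is now assigned to the 2-oxoglutarate dehydrogenase complex.

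**Figure D2:**
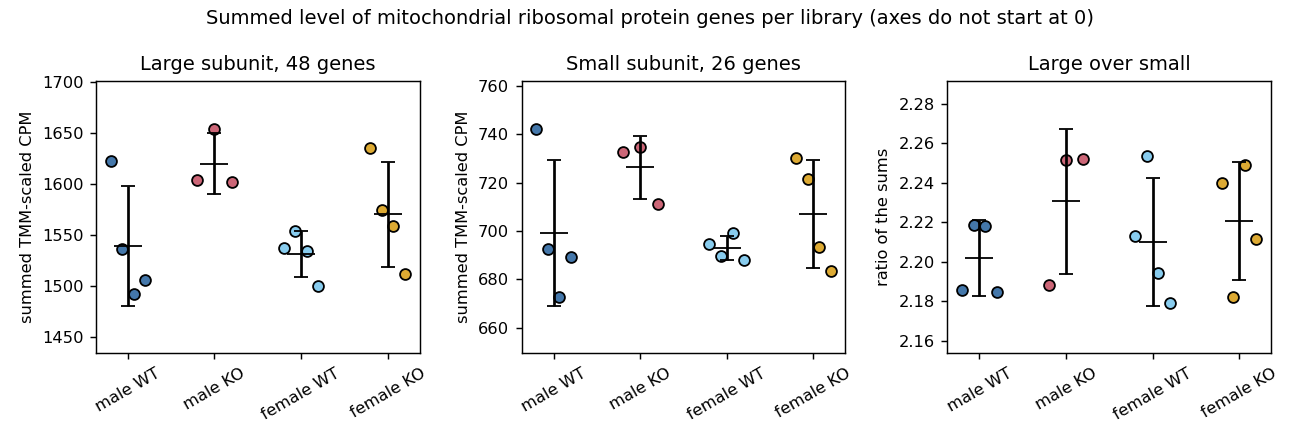
Summed CPM of large subunit members (left) and small subunit members (middle) and their ratio (right) in each of the 15 libraries, by group; points are libraries, horizontal bars the mean and vertical bars the SD, and the axes do not start at 0. KO and WT libraries overlap in each panel for both sexes, and the ratio stays between 2.18 and 2.25.

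In male cells, KO against WT changed few members, and those that changed rose. Of 74 members, 10 were higher in KO and 0 were lower, by edgeR's quasi-likelihood test with p-values adjusted by Benjamini and Hochberg over all 13912 genes tested and a threshold of 0.05 (unadjusted p under 0.05: 16 higher, 0 lower; DESeq2 8 higher and 0 lower, limma-voom 8 and 0). That is 13.5% of the members, against 20.2% of all genes tested, a share below the background; in the upward direction alone 13.5% stood against 10.1%. The 10 were 7 of 48 large and 3 of 26 small subunit members. The median log2 fold change of the members was 0.05 (large 0.06, small 0.05), with 57 of 74 above 0, beside 0.0002 over all genes. Libraries of the 2 genotypes did not overlap for 12 members, all higher in KO, where 13.9% of all genes were higher without overlap and 13.7% lower.

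The sizes were small. The 95% interval of the fold change lay within 1.5-fold in either direction for 74 of 74 members in males, and within 1.3-fold for 73, all but Mrpl40. The count of calls moved with single libraries. It was 2 without male KO 2, 4 without male WT 3, 5 without male KO 3, 6 without male KO 1 or without male WT 2, and 14 without male WT 1.

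In female cells, 10 members were higher in KO and 3 were lower by the same edgeR test, or 2 and 6 without composition scaling (unadjusted p under 0.05: 16 higher, 4 lower; DESeq2 6 higher and 2 lower, limma-voom 10 and 2). This is 17.6% of the members, against 39.3% of all genes tested, of which 20.7% were higher and 18.6% lower. The higher members were 6 large and 4 small subunit genes, and the 3 lower members all belonged to the large subunit. The median log2 fold change was 0.03 (large 0.03, small 0.02), with 45 of 74 above 0, beside 0.0001 over all genes. Libraries did not overlap for 8 members higher in KO and for 4 lower, against backgrounds of 19.4% and 16.7%. The 95% interval lay within 1.5-fold for 73 of 74 members, Mrps24 being the exception, and within 1.3-fold for 71, all but Mrps24, Mrps34 and Mrpl28.

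The female counts depended on the scaling and on single libraries. Without composition scaling, the member median was -0.0087, and the share of all called genes that were higher went from 52.7% to 39.9%, with the median of all genes at -0.04. The number of higher members was 4 without female KO 1, 5 without female KO 2 and 6 without female WT 3. The number of lower members was 1 without female WT 1, female WT 2, female KO 3 or female KO 4.

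**Figure D3:**
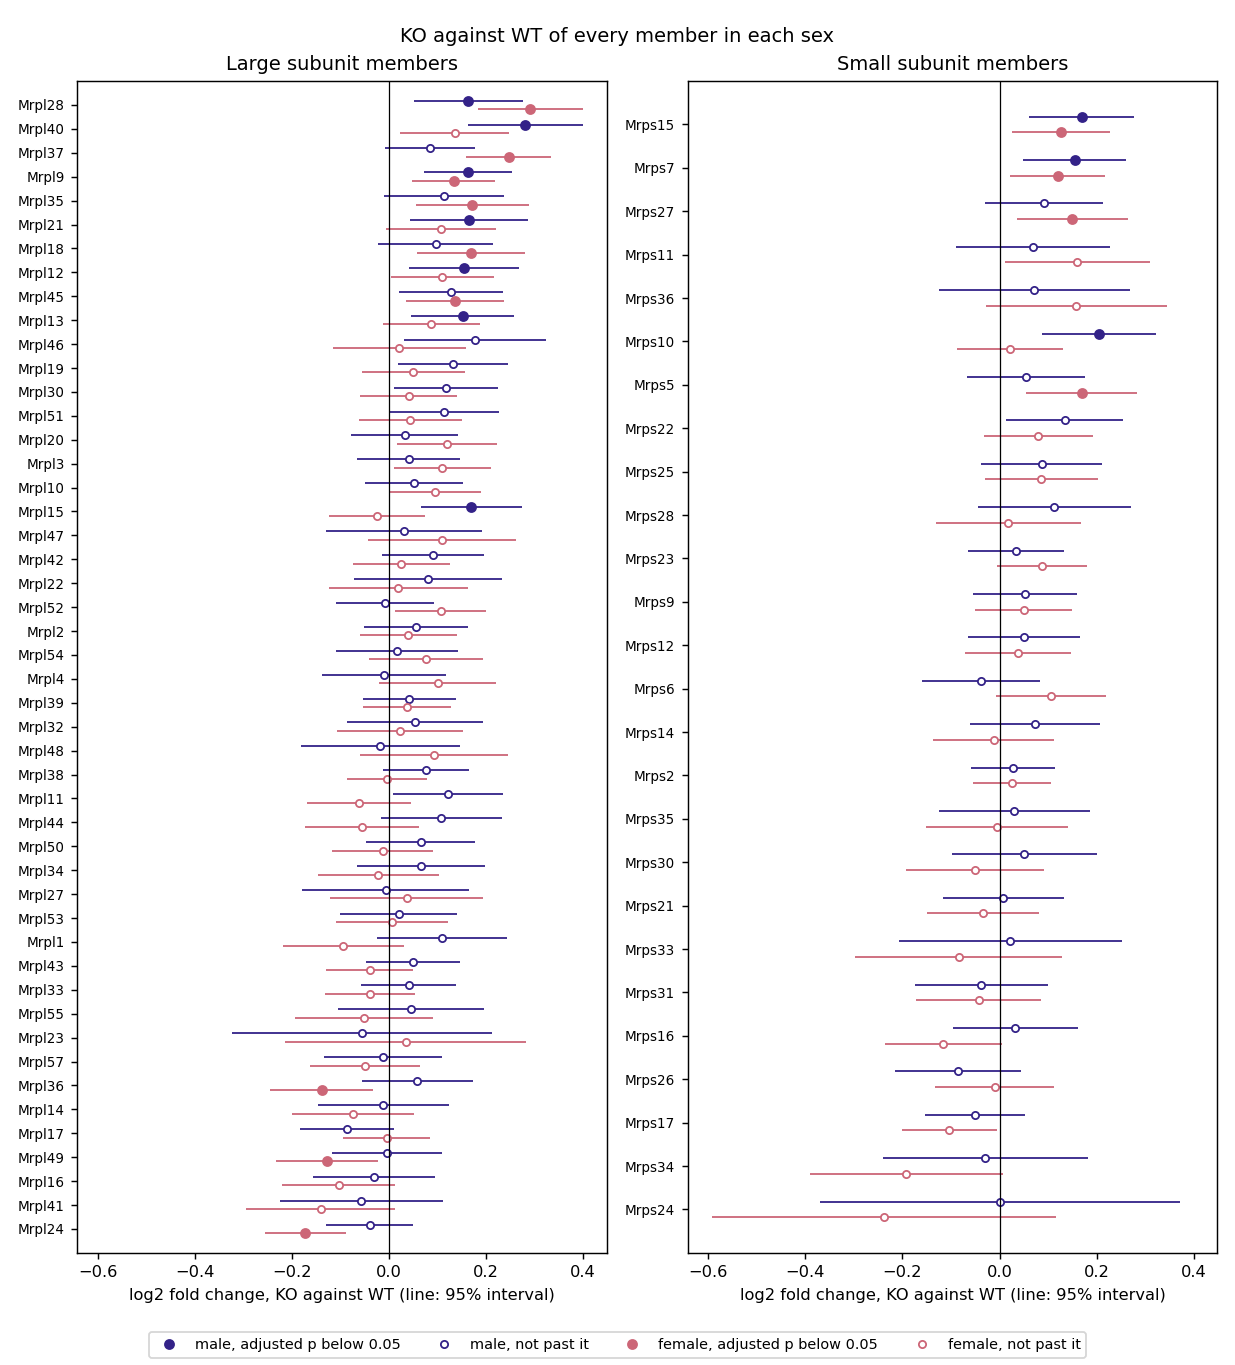
Log2 fold change of KO against WT with its 95% interval for every large (left) and small (right) subunit member, in males (dark blue) and females (red); filled points have an edgeR adjusted p below 0.05, and members are ordered by the sum of both effects. Filled points lie to the right of 0 for 10 members in males, and in females to the right for 10 and to the left for 3 (2 and 6 without composition scaling).

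By structural class, members with a bacterial relative in the large subunit (30 genes) had 6 higher in males (20%, where 10.1% of all genes tested were higher), and 4 higher and 2 lower in females (20% called, where 39.3% of all genes were). Mitochondria-specific large subunit members (19 genes, Mrps30 included) had 1 higher in males (5.26%), and 2 higher and 1 lower in females (15.8%). Among 15 small subunit members with a bacterial relative, 3 were higher in each sex (20%). Among 9 mitochondria-specific small subunit members, 0 were called in males (unadjusted p under 0.05: 1 in edgeR) and 1 was higher in females (11.1%). Mrps36 was called in neither sex. In females each class was called less often than all genes, a difference that was not tested. Of the 26 members named for the small subunit, those higher in females numbered 1 with upper quartile scaling or in DESeq2, and without composition scaling 0 were higher and 2 lower.

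Mrpl28, a large subunit protein with a bacterial relative (chr17:26123500-26126613), had the largest female change. Its levels were 29.7, 28.3, 30.03 and 28.6 CPM in female WT and 36.0, 35.0, 36.2 and 35.6 CPM in female KO. In males they were 36.4, 33.5, 29.8 and 36.1 CPM in WT and 36.8, 38.5 and 38.9 CPM in KO. KO libraries lay above WT libraries in both sexes, by a clear gap in females and narrowly in males, and female WT was the low group. The log2 fold change was 0.29 (SE 0.05, edgeR adjusted p = 3.47e-05) in females and 0.16 (SE 0.06, edgeR adjusted p = 0.0324) in males. The male call was lost without male WT 2, male WT 3, male KO 2 or male KO 3 (edgeR adjusted p = 0.0562, 0.171, 0.0895 and 0.134).

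Mrpl37, a mitochondria-specific large subunit protein (chr4:107055874-107066868), rose in female KO. Female WT libraries held 41.2, 43.6, 41.9 and 42.1 CPM, and female KO libraries 52.3, 51.0, 47.4 and 49.6 CPM. Male WT libraries held 51.1, 46.9, 46.7 and 45.2 CPM and male KO libraries 50.4, 50.4 and 50.6 CPM. Genotypes did not overlap in females and did in males, where male WT 1 was above every KO library. The log2 fold change in females was 0.25 (SE 0.04, edgeR adjusted p = 2.10e-05), and it was 0.08 (SE 0.05, edgeR adjusted p = 0.211) in males. The gene starts 120 bases from that of Cyb5rl on the other strand.

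Mrpl40, another mitochondria-specific large subunit protein (chr16:18872018-18876862), had the largest male change. Male WT libraries held 23.2, 21.9, 21.2 and 22.5 CPM and male KO libraries 26.03, 28.5 and 26.6 CPM. Female WT libraries held 23.2, 21.8, 24.1 and 21.5 CPM and female KO libraries 26.1, 24.4, 24.6 and 24.4 CPM. KO lay above WT without overlap in both sexes. The log2 fold change in males was 0.28 (SE 0.06, edgeR adjusted p = 0.000487). In females it was 0.14 (SE 0.06) and missed the threshold (edgeR adjusted p = 0.0505).

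Mrpl15 and Mrpl21 have bacterial relatives in the large subunit and were higher in male KO alone by the threshold. Mrpl15 was at 47.5, 43.5, 44.9 and 44.8 CPM in male WT and at 49.1, 55.0 and 48.9 CPM in male KO, and at 42.2 to 48.9 CPM in female WT and 41.9 to 46.1 CPM in female KO. Male libraries did not overlap and female libraries did. Its log2 fold change was 0.17 in males (SE 0.05, edgeR adjusted p = 0.0158, but 0.170 without male KO 2) and -0.03 in females (SE 0.05, edgeR adjusted p = 0.715). Mrpl21 was at 29.9, 28.8, 26.3 and 27.2 CPM in male WT and at 31.3, 33.6 and 29.7 CPM in male KO, with overlap, and at 27.1 to 29.1 CPM in female WT and 27.9 to 32.5 CPM in female KO. Its male log2 fold change of 0.16 (SE 0.06, edgeR adjusted p = 0.0461) was near the threshold. It was lost without male WT 3, male WT 4, male KO 1, male KO 2 or any single female WT library, with an edgeR adjusted p of up to 0.246. Mrpl21 also has a near-identical pseudogene copy.

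Mrpl18 and Mrpl35, again with bacterial relatives, were higher in female KO. Mrpl18 was at 31.2, 26.7, 27.2 and 29.0 CPM in female WT and at 35.7, 31.4, 30.7 and 30.8 CPM in female KO, and at 28.8 to 30.9 CPM in male WT and 31.5 to 31.9 CPM in male KO. Female KO 1 stood apart at the top, and female libraries overlapped. The female log2 fold change was 0.17 (SE 0.05, edgeR adjusted p = 0.0131), and the call was lost without female KO 1, female WT 2 or female WT 3 (edgeR adjusted p = 0.0962, 0.0592 and 0.0501). Mrpl35 was at 23.3, 24.9, 23.4 and 22.0 CPM in female WT and at 27.5, 27.2, 25.5 and 25.1 CPM in female KO, without overlap, and at 23.9 to 25.8 CPM in male WT and 24.2 to 28.0 CPM in male KO. Its female log2 fold change was also 0.17 (SE 0.06, edgeR adjusted p = 0.0169), lost without female KO 1, female KO 2 or female WT 4 (edgeR adjusted p = 0.0556, 0.0590 and 0.0783).

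The 3 members that fell in female KO were Mrpl24, Mrpl36 and Mrpl49. Mrpl24 (chr3:87919506-87923672), whose bacterial relative starts the assembly of the large subunit, was at 64.9, 68.7, 66.5 and 63.9 CPM in female WT and at 59.1, 58.6, 60.0 and 56.4 CPM in female KO. In males it was at 57.9 to 64.0 CPM in WT and 56.6 to 64.1 CPM in KO. Every female KO library lay below every female WT library, and males overlapped. The log2 fold change fell by 0.17 in females (SE 0.04, edgeR adjusted p = 0.000951), and in males it was -0.04 (SE 0.04, edgeR adjusted p = 0.592). Mrpl24 shares 594 exon bases with a gene on the opposite strand.

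Mrpl36 (chr13:73328513-73332178), whose bacterial relative is among the smallest proteins of the large subunit, was at 30.9, 30.2, 29.8 and 30.2 CPM in female WT and at 29.7, 28.1, 27.0 and 25.5 CPM in female KO. Male levels were 26.9 to 30.1 CPM in WT and 28.9 to 30.1 CPM in KO. Female libraries did not overlap, although female KO 1 lay next to the WT libraries. The female log2 fold change was -0.14 (SE 0.05, edgeR adjusted p = 0.0333), and the call was lost without female WT 1, female WT 2, female WT 4, female KO 3 or female KO 4 (edgeR adjusted p = 0.0766, 0.0543, 0.0579, 0.0666 and 0.132). Mrpl49 (chr19:6053622-6057785), mitochondria-specific, was at 34.8, 35.4, 36.5 and 31.1 CPM in female WT and at 31.3, 32.5, 31.8 and 30.2 CPM in female KO, with overlap through female WT 4, and at 31.1 to 34.5 CPM in male WT and 31.9 to 32.9 CPM in male KO. Its log2 fold change was -0.13 (SE 0.05, edgeR adjusted p = 0.0467), and the call was lost without male KO 3, female WT 1, female WT 2, female WT 3, female KO 1, female KO 3 or female KO 4 (edgeR adjusted p = 0.0513, 0.0920, 0.114, 0.165, 0.0640, 0.0554 and 0.117). Both genes share exon bases with a gene on the opposite strand, 30 bases for Mrpl36 and 91 for Mrpl49. Among the members described for their KO effect, others besides Mrpl24 also share such bases. These are Mrps34 (576 bases), Mrps27 (417), Mrps7 (246), Mrpl9 (157), Mrpl18 (141) and Mrpl21 (117).

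Among small subunit members with a bacterial relative, Mrps10 had the largest male change (chr17:47368887-47381417). It was at 24.6, 25.05, 23.2 and 24.5 CPM in male WT and at 29.7, 26.7 and 27.6 CPM in male KO, and at 24.1 to 27.2 CPM in female WT and 25.8 to 28.1 CPM in female KO. Male libraries did not overlap and female libraries did. The log2 fold change was 0.20 in males (SE 0.06, edgeR adjusted p = 0.00935) and 0.02 in females (SE 0.05, edgeR adjusted p = 0.776). The male call was lost without male KO 1 (edgeR adjusted p = 0.0823). Mrps10 has a near-identical pseudogene copy.

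Mrps15, whose bacterial relative binds the small subunit rRNA early in assembly, was higher in KO in both sexes. Male WT libraries held 37.6, 34.2, 32.0 and 34.6 CPM and male KO libraries 39.0, 39.3 and 38.7 CPM. Female WT libraries held 33.4, 32.2, 34.1 and 34.7 CPM and female KO libraries 39.4, 37.2, 35.3 and 35.4 CPM. Neither sex had overlap between genotypes. The log2 fold change was 0.17 in males (SE 0.05, edgeR adjusted p = 0.0198) and 0.13 in females (SE 0.05, edgeR adjusted p = 0.0427). The male call was lost without male WT 3, male KO 2 or male KO 3 (edgeR adjusted p = 0.0901, 0.0587 and 0.0541). The female call was near the threshold: it was lost in 6 of 9 other settings (adjusted p up to 0.165, without composition scaling) and without any single library other than male WT 1, male WT 3, male KO 3, female WT 4, female KO 3 or female KO 4 (edgeR adjusted p up to 0.175).

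Mrps5, with a bacterial relative, and Mrps27, a mitochondria-specific pentatricopeptide repeat protein whose promoter is shown above, were higher in female KO. Mrps5 was at 30.1, 25.9, 31.3 and 30.5 CPM in female WT and at 31.3, 35.4, 34.1 and 31.8 CPM in female KO, the lowest KO library just above the highest WT library, and at 29.99 to 33.2 CPM in male WT and 32.3 to 35.5 CPM in male KO. Its female log2 fold change was 0.17 (SE 0.06, edgeR adjusted p = 0.0158), lost without female WT 2, female KO 2 or female KO 3 (edgeR adjusted p = 0.105, 0.0815 and 0.0516). Mrps27 was at 29.4, 27.0, 25.5 and 30.2 CPM in female WT and at 33.05, 28.5, 31.6 and 31.5 CPM in female KO, with overlap, and at 28.6 to 31.6 CPM in male WT and 30.4 to 32.6 CPM in male KO. Its female log2 fold change was 0.15 (SE 0.06, edgeR adjusted p = 0.0326), and the call was lost without female WT 2, female WT 3, female KO 1, female KO 3 or female KO 4 (edgeR adjusted p = 0.0904, 0.155, 0.112, 0.0770 and 0.0705). Mrps5 has a near-identical pseudogene copy.

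Other settings ended some of these calls, besides those of Mrps15 given above. Without composition scaling Mrpl35, Mrps5, Mrpl18 and Mrps27 missed the threshold in females (edgeR adjusted p = 0.0648, 0.0587, 0.0568 and 0.119), and Mrps27 also with upper quartile scaling (0.0508) and in DESeq2 (0.0543). Mrpl49 missed it in DESeq2 (adjusted p = 0.0611) and limma-voom (0.0601). In males Mrpl21 missed it in 5 of 9 settings, with an adjusted p of up to 0.0626 in DESeq2, and Mrpl28 when only the male groups were fitted (edgeR adjusted p = 0.0651). Mrpl40 in males and Mrpl28, Mrpl37 and Mrpl24 in females passed in all 9 settings and without each single library.

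**Figure D4:**
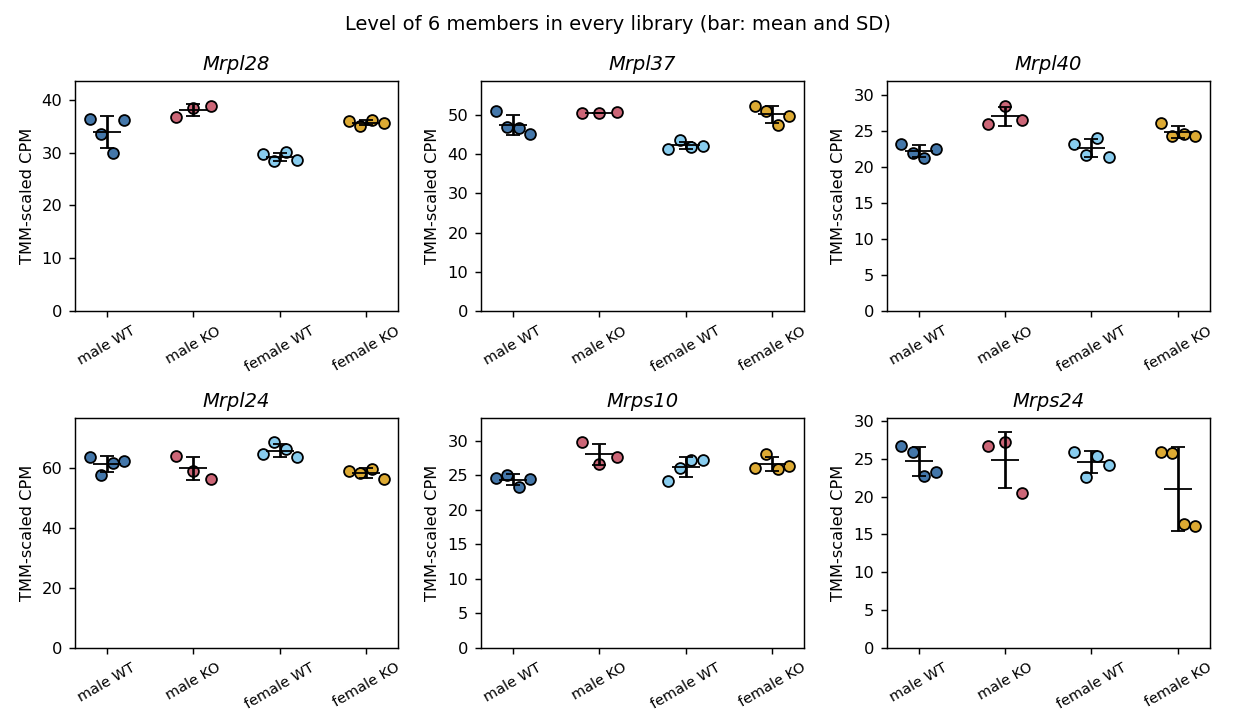
TMM-scaled CPM of 6 members in each of the 15 libraries by group; points are libraries, horizontal bars the mean and vertical bars the SD, and every axis starts at 0. Mrpl28 and Mrpl37 are lowest in female WT, Mrpl40 lies above WT in the KO libraries of both sexes, Mrpl24 is lower in female KO, and Mrps24 falls into separate levels within female KO.

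The members called in both sexes were Mrpl9, Mrpl28, Mrps7 and Mrps15, all 4 higher in KO. They make up 40% of the male and 30.8% of the female calls among members. Over all genes tested, 61.4% of the male and 31.5% of the female calls were also called in the same direction in the other sex, so the members' shares lay below the first and near the second. The number called in both sexes was 1 to 6 in the 9 other settings. Without composition scaling only Mrpl28 was left. Upper quartile scaling, DESeq2 and both other filters on low counts each left Mrpl9 and Mrpl28. The number was 0 without male KO 2, 1 (Mrpl9) without male WT 2 or male KO 3, and 6 without male WT 1. Mrpl9 and Mrps7 fall outside the rule for named genes and are named because their values had been seen. Mrpl9 had a log2 fold change of 0.16 in males and 0.13 in females (edgeR adjusted p = 0.00783 and 0.0109), without overlap in either sex. Its female call was lost without composition scaling (edgeR adjusted p = 0.0726) and its male call without male KO 2 (0.0877 in the same test). Mrps7 had 0.15 and 0.12 (edgeR adjusted p = 0.0305 and 0.0473), with overlap in females. Its female call was lost in 7 of 9 other settings (adjusted p up to 0.185) and without any single library other than male WT 1, male WT 3, female WT 2 or female KO 3 (edgeR adjusted p up to 0.148). Its male call was lost without any single male library other than male WT 1 (edgeR adjusted p up to 0.127). No member was called in opposite directions, and 55 were called in neither sex.

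The KO effect was not shown to differ between the sexes for any member. In the interaction test, the female minus the male KO effect, 0 of 74 members passed in edgeR, against 15.6% of all genes tested (9.76% higher, 5.89% lower), and DESeq2 and limma-voom also called 0. At an unadjusted p under 0.05 edgeR gave 1 higher (Mrpl37, a difference of 0.16) and 6 lower, of which Mrpl15 (-0.19), Mrpl36 (-0.20), Mrps10 (-0.18) and Mrpl24 (-0.13) are named above. The count of members lower by interaction depended on the fit: it was 5 without composition scaling and 1 with DESeq2 size factors or without the filter on low counts. It was 3 without female KO 1, 2 without male WT 1, and 1 without male KO 1, male KO 3, female WT 2 or female WT 4.

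Female and male cells were close for these genes. These comparisons use the same libraries as those of genotype and are not independent of them. In WT, 0 members were higher in females and 3 were lower by edgeR, against 28.6% of all genes tested called (12.6% higher, 16% lower). The 3 were Mrpl28 with a log2 difference of -0.22 (edgeR adjusted p = 0.00145), Mrpl37 with -0.17 (0.00198 in the same test) and Mrpl4, whose bacterial relative lines the exit tunnel, with -0.16 (edgeR adjusted p = 0.0411). Mrpl4 had a level of 21.7 ± 0.823 CPM (n = 4) in female and 24.1 ± 1.72 CPM (n = 4) in male WT cells, and its call was lost without male WT 1, male WT 4, male KO 1, male KO 2, female WT 1, female WT 2, female WT 3, female KO 2 or female KO 3, with an edgeR adjusted p from 0.0509 to 0.251. The number of members higher in female WT reached 5 without male WT 1 and 1 without male KO 1. In KO, 0 were higher in females and 1 was lower, Mrpl15 (-0.20, edgeR adjusted p = 0.00999, or 0.143 without male KO 2), against 9.2% of all genes (4.94% higher, 4.26% lower). That number was 3 without female KO 1, and 2 without male WT 1, male KO 3 or female KO 4.

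Mrps24 and Mrps34, small subunit members picked after their values were seen, varied within female KO, and Mrps24 also within male KO. Mrps24 (chr11:5703983-5715680) was at 25.97, 25.8, 16.4 and 16.1 CPM in female KO and at 26.7, 27.2 and 20.5 CPM in male KO. WT libraries lay between 22.7 and 26.7 CPM in both sexes. Female KO 3 and female KO 4 and, less so, male KO 3 were therefore low, and the others lay within the WT range or just above it. The female log2 fold change was -0.24 (SE 0.16) and did not pass (edgeR adjusted p = 0.278). Mrps34 showed 31.1, 25.8, 21.8 and 21.3 CPM in female KO, again with female KO 3 and female KO 4 lowest, and a female log2 fold change of -0.19 (SE 0.09, edgeR adjusted p = 0.119). It passed as lower without female KO 1 (-0.31, edgeR adjusted p = 0.000367) and with a replicate block (edgeR adjusted p = 0.0263). In males Mrps34 lay at 25.7 to 29.1 CPM in KO, within the 25.6 to 30.6 CPM of WT.

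Other genes of mitochondrial translation and mitochondrial DNA were taken as lists, in this and the next paragraph. At most 11.1% of a list was called in males and 12.5% in females, against 20.2% and 39.3% of all genes tested. The lists are small, and these differences were not tested. Of 9 mitoribosome proteins with other names, 1 was higher in KO in each sex, Mrps18b in both, with a log2 fold change of 0.20 in males and 0.18 in females (edgeR adjusted p = 0.00620 and 0.00417). Of 29 genes for mitoribosome assembly and rRNA modification, 1 was higher in males, Fastkd2 (0.17, edgeR adjusted p = 0.0390). In females 1 of these was higher, Grsf1 of the mitochondrial RNA granules (0.09, edgeR adjusted p = 0.0230), and 2 were lower, the assembly factors Mterf3 (-0.23, edgeR adjusted p = 0.00270) and Ngrn (-0.21, edgeR adjusted p = 0.00874). Mrps18b in males was lost without male KO 2 or male KO 3 (edgeR adjusted p = 0.0568 and 0.0501). Fastkd2 was lost in 3 of 9 settings (adjusted p up to 0.0673) and without male WT 3, male WT 4, male KO 2 or male KO 3 (edgeR adjusted p up to 0.150), and Grsf1 in 2 of 9 (adjusted p up to 0.192, without composition scaling) and without female WT 4, female KO 1 or female KO 3 (edgeR adjusted p up to 0.0750).

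Of 16 mitochondrial translation factors, 0 were called in males and 2 in females, Tsfm, the nucleotide exchange factor of Tufm, higher (0.19, edgeR adjusted p = 0.0119) and Pdf, the peptide deformylase, lower (-0.30, edgeR adjusted p = 0.0149). At an unadjusted p under 0.05 edgeR gave 0 of the 16 in males. Of 20 mitochondrial aminoacyl-tRNA synthetase genes, 0 were called in males (1 at an unadjusted p under 0.05) and 2 were lower in females, Ears2 (-0.28, edgeR adjusted p = 0.00346) and Wars2 (-0.20, edgeR adjusted p = 0.0285). Single libraries ended the calls of Tsfm (female WT 3, edgeR adjusted p = 0.0537), Pdf (female KO 3 or female KO 4, edgeR adjusted p up to 0.0552) and Wars2 (female WT 1, female WT 2, female KO 1 or female KO 3, edgeR adjusted p up to 0.144). Of 15 genes for transcription and replication of mitochondrial DNA, edgeR called 0 in either sex, with 0 at an unadjusted p under 0.05 in males and 3 in females.

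Of 12 regulators of nuclear genes for mitochondria, 1 was called in males (8.33%) and 4 in females (33.3%). Both shares lay below those of all genes tested, 20.2% and 39.3%. Myc was higher in both sexes (log2 fold changes of 0.14 and 0.30, edgeR adjusted p = 0.000913 and 1.83e-10). In females Pprc1 (0.16) and Ppargc1b (0.48, edgeR adjusted p = 0.0134, but 0.0580 without female KO 2 and 0.0691 without female KO 4) were also higher and Ppargc1a was lower (-0.77, edgeR adjusted p = 0.00604). Ppargc1a, a coactivator of mitochondrial biogenesis, was low throughout, at 1.27 CPM in male KO against 1.56 in male WT, and at 1.1 CPM in female KO against 1.89 in female WT, as group means.

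The cytosolic ribosome gave other counts. Of 80 cytosolic ribosomal protein genes tested, 58 (72.5%) were higher and 0 lower in male KO, and 66 (82.5%) were higher and 0 lower in female KO, with median log2 fold changes of 0.14 and 0.15. Beside these, the 13.5% of mitochondrial members called in males and 17.6% in females were below the 20.2% and 39.3% of all genes called in either direction. In the upward direction alone, 13.5% of members were called in each sex. Of all genes tested, 10.1% were higher in male KO and 20.7% in female KO, so the male share lay above its background and the female share below. No test was made of the difference between the lists. The cytosolic genes were also read more deeply, with a mean sum in male WT of 21744 CPM over 84 genes, against 2239 CPM over the 74 members. The part of depth in the shares called was not tested. Without composition scaling, the cytosolic genes had 50 higher and 1 lower in females.

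**Figure D5:**
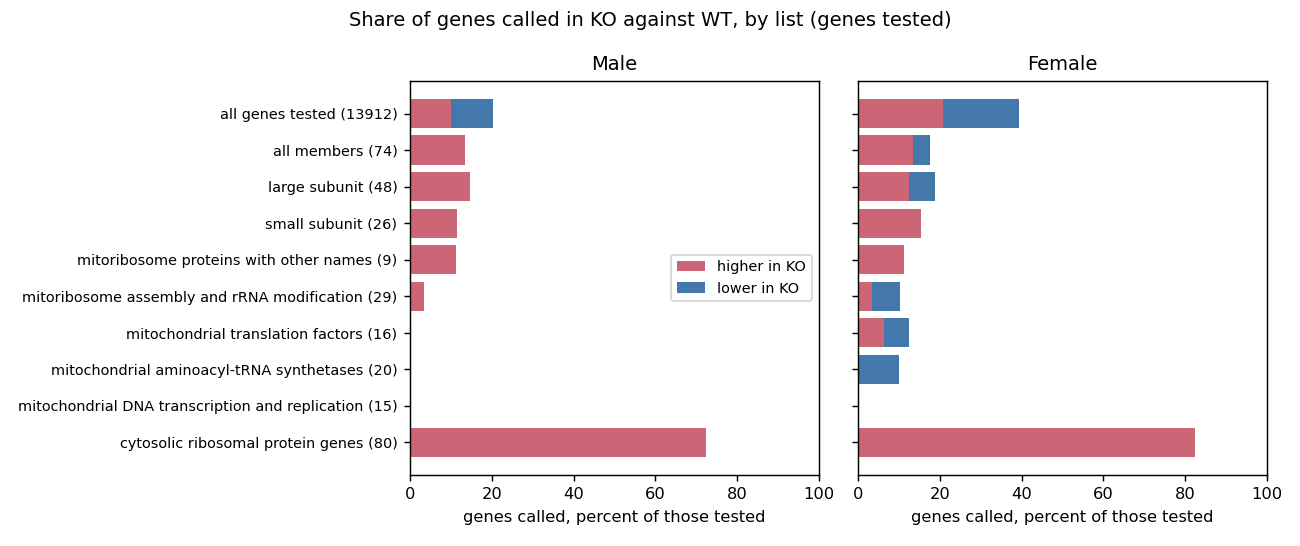
Percent of genes with an edgeR adjusted p below 0.05 in KO against WT, in males (left) and females (right), by list, with the number of genes tested in parentheses; red is higher in KO and blue lower. In either direction, members were called in 13.5% (male) and 17.6% (female), below the 20.2% and 39.3% of all genes. Cytosolic ribosomal protein genes were called in 72.5% and 82.5%. Higher in KO were 13.5% of members in each sex, against 10.1% (male) and 20.7% (female) of all genes.

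The cells also differed between genotypes in other ways. As background for the lists of this and the next paragraph, 10.1% of all genes tested were higher and 10.1% lower in male KO. In female KO 20.7% were higher and 18.6% lower. All 20 cell cycle genes were higher in KO in each sex, with median log2 fold changes of 0.36 in males and 0.77 in females, and their summed level was 1098 to 1137 CPM in male KO against 874 to 915 CPM in male WT, and 975 to 1019 CPM in female KO against 637 to 648 CPM in female WT. All 10 endothelial markers were lower in male KO, and 3 were higher in female KO. Of 9 fibroblast markers tested, 7 were lower in male KO, while 5 were lower and 2 higher in female KO; their sums in male WT, KO and then female WT, KO were 3527 to 3767, 1849 to 2043, 3630 to 3912 and 2612 to 2845 CPM, an order used for the lists that follow. Of 7 smooth muscle and pericyte markers, 6 were lower in male KO, and 3 lower and 2 higher in female KO, with sums of 3246 to 3583, 2728 to 2808, 3559 to 3604 and 3524 to 4083 CPM. Of 9 leukocyte markers tested, 4 were higher in male KO and 5 in female KO, with sums of 22.9 to 27.9, 34.9 to 36.9, 37.4 to 45.7 and 51.4 to 63.1 CPM.

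Of 6 podocyte markers, 2 were lower in male KO, and 3 were higher and 1 lower in female KO, with sums of 449 to 475, 383 to 418, 297 to 311 and 309 to 347 CPM. Of 7 distal nephron and collecting duct markers tested, 0 were called in males (3 lower at an unadjusted p under 0.05 in edgeR) and 5 were lower in females, with sums of 37.4 to 42.4, 33.9 to 35.7, 43.5 to 48.8 and 23.4 to 29.8 CPM; Pvalb and Slc4a1 had no count and Aqp2 had 1. Of 13 proximal tubule markers tested, 2 were higher and 2 lower in males, and 1 higher and 3 lower in females, with sums of 528 to 585, 536 to 558, 523 to 542 and 471 to 502 CPM. In such bulk samples fewer cells of a type and less RNA per cell cannot be told apart. The part of these lists in the levels of the mitochondrial ribosomal protein genes was not tested.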

How the data were processed

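RNA was measured in 15 libraries of cultured mouse kidney cells. The authors deposited a table of raw counts by gene symbol. Per the submitters' processing notes the build was mm10 and the tools were STAR 2.6.1, featureCounts, edgeR 3.26.8 and limma 3.40.6. Libraries were strand-specific per the labels' protocols, and neither annotation nor strand setting of the counting is given in the sources used here. A second deposited table of CPM, equal to counts over library totals, served only as a check.

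The counts were fitted with edgeR 4.0.16 (R 4.3.3) after filterByExpr (minimum count 10, minimum total 15), which kept 13912 of 24421 genes, and TMM scaling. One robust quasi-likelihood model had a mean for each group, and its common dispersion had a square root of 3.59%. Genes passed at an adjusted p (Benjamini-Hochberg, all genes tested) below 0.05. The standard error is the log2 fold change over the square root of F, and intervals are 95%. Printed CPM are TMM-scaled. The fit was also run on simulated counts in which every gene had the same spread. Its recovery of changes as small as those of the members is not given here.

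Members and lists were chosen with earlier results of these data known. By rule, values are given for the 6 called members with the largest log2 fold change up and down in each sex, for 4 up and 4 down by interaction where called (none were), for the 5 highest and 5 lowest levels per length, and for up to 2 called genes per direction from lists on mitochondria. Members called in the sex comparisons are named as well, after their values were known. Positions are from GENCODE M21 and promoters from RefSeq (GRCm38.p6), and copies were found with BLAST 2.17.0. Alternatives were DESeq2 1.42.0, limma-voom (limma 3.58.1), other scalings, filters and samples, a replicate block, and each library left out. The level by median coding transcript length was added after seeing the data. Diet1 itself was not analysed here.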

Additional observations from a re-analysis of the deposited data

Results flagged for a closer look

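For the members whose levels are given above and the subunit sums, 96 sets of 4 libraries were checked for a library far from the other 3. Chance gives about 5%, and 2 were found. Mrpl40 was at 26.1 CPM in female KO 1, against 24.4 to 24.6 CPM in the other female KO libraries. Mrpl18 was at 35.7 CPM in female KO 1, against 30.7 to 31.4 CPM in the others. Both therefore concern the same library.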

How the results depend on the processing

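Among the fold changes of named genes followed through the alternatives, each in the comparison it was named for, none changed sign. Other printed fold changes were not followed. The depth allowed changes well under 1.3-fold to be called, but only as differences between pools. Mrpl4, lower in female WT, was lost in 4 of 9 alternatives (adjusted p up to 0.0847). Without composition scaling, female KO had 2 members higher and 6 lower, 5 were lower by interaction, 2 were higher in female than male WT and 3 lower in female than male KO, and the log2 ratio of female KO over WT was -0.0020 (large) and -0.0090 (small) for the sums. The DESeq2 test gave 6 higher in female KO; DESeq2 size factors gave 1 lower by interaction, as did no filter on low counts. Fitting only the groups compared gave 6 higher in male KO. The log2 of large over small subunit level was 1.27, 1.29, 1.27 and 1.28 (male WT, male KO, female WT, female KO) with Mrps30 moved and Mrps36 left out, against 1.14, 1.16, 1.14 and 1.15, and 0.22, 0.23, 0.22 and 0.24 as a mean of log2 values, which leaves out the number of genes. For the other changes the cause was not tested. Same-numbered deviations correlated weakly but were mostly positive, at -0.03 to 0.17, and above 0.1 in 1 of 21 pairs. Of 15 libraries, 8 correlated best with a library of their own number. Whether libraries of the same number shared a processing step was not tested. With a replicate block, 10 were higher in male KO, 15 higher and 4 lower in female KO, 1 higher by interaction, 1 higher in female WT and 2 lower in female KO than male KO. Leaving out each library in turn gave 2 to 14 members higher in male KO, 4 to 14 higher and 1 to 3 lower in female KO, 0 to 3 lower by interaction, 0 to 5 higher and 2 to 3 lower in female WT, and 0 to 3 lower in female than male KO.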
